A study of Rattus norvegicus with 32 samples.

Results

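The arrays described here are the mammary glands with the lowest and the highest level of the progesterone receptor transcript and of its partner in estrogen response, Greb1, among rats sampled through the estrous cycle. Each of 31 arrays, 1 per rat, was given a score, the mean of its log2 intensities of Pgr and Greb1 after centring each gene over the 31 arrays, and the 10 arrays of lowest score were set against the 10 of highest score. The remaining 11 arrays form the middle, and a further array, of 40 h, was left out. That array was set aside in the study's methods because its data looked faulty, and its values are given below only as a description. The rats were young adult, virgin Sprague-Dawley females that received no treatment, so the 2 groups differ in no agent or allele and were defined by measured values alone. A test between them therefore asks which other transcripts differed between rats low and rats high in Pgr and Greb1. Its p-values set that difference against the spread among rats inside the groups. The groups also differ in cycle day, as given below, and these p-values do not separate score from day. Pgr and Greb1 themselves chose the arrays and were not tested.

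Pgr encodes the nuclear receptor through which progesterone acts, and in the mammary gland it is made by hormone-sensing luminal cells, largely the same cells that hold the estrogen receptor. Estrogen acting through its receptor raises transcription of Pgr, and progesterone bound to its receptor leads to loss of that receptor. The hormone-sensing cells pass the signal to their neighbours through secreted factors such as RANK ligand, WNT4 and amphiregulin, and the neighbours divide. Greb1 encodes a coregulator of the estrogen receptor and is itself induced by estrogen.

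The low arrays came from later hours of the cycle than most of the high arrays. Hours are counted from midnight of the first day, and estrus falls on the second day. On day 2 the low arrays were those of 37.1, 41.6 and 43 h. On day 3 they were those of 57 h, 58 h, 59.8 h, 61.3 h, 62.5 h and 64.2 h, and the array of 82.5 h was the only one of day 4. The high arrays were 5 of day 1 (7 h, 10 h, 13.2 h, 14.6 h and 16 h), 4 of day 2 (31.6 h, 32.8 h, 34.5 h and 35.5 h) and that of 85.3 h on day 4. No high array fell on day 3 and no low array on day 1, so group and cycle day overlap only on days 2 and 4. The clock hour was 13.5 ± 3.33 h (SD, n = 10) in the low arrays and 11.25 ± 3.01 h (SD, n = 10) in the high arrays, a difference of 2.25 h with p = 0.128 in a two-sided permutation test.

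Pgr lay at an intensity of 34.0 to 67.4 with a median of 49.4 in the low arrays and at 238 to 433 with a median of 289 in the high arrays. Greb1 lay at 17.6 to 37.4 with a median of 25.4 in the low arrays and at 103 to 305 with a median of 167 in the high arrays. These values are the ones the arrays were picked on. Scores ran from -1.73 to -1.08 in the low group and from 0.82 to 1.95 in the high group. The arrays next to the lower limit were those of 62.5 h (-1.17) and 64.2 h (-1.08) inside the low group and 65.6 h (-0.86) outside it. At the upper limit they were 32.8 h (0.82) inside the high group and 7.5 h (0.67) outside it. The array of 40 h, with Pgr at 270 and Greb1 at 195, would have ranked among the high arrays with a score of 1.33. Between 35.5 and 43 h the level turned more than once from one rat to the next, since Pgr was high in the rat of 35.5 h and low in that of 37.1 h, stood at 241 in the middle array of 38.3 h and at 270 in the unused array of 40 h, and was low again in the rats of 41.6 and 43 h.

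**Figure D1:**
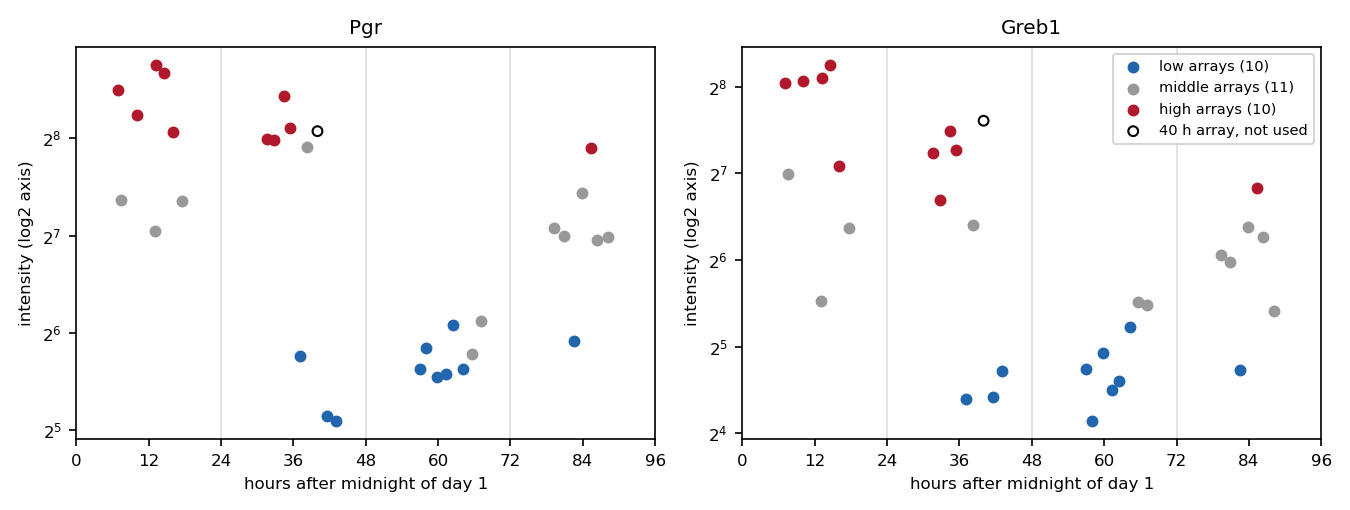
Intensity of Pgr (left) and Greb1 (right) on a log2 axis against the hour of sampling, 1 point per rat, with grey lines at midnight. The 10 low arrays (blue) lie between 37.1 and 82.5 h, the 10 high arrays (red) lie on days 1 and 2 and at 85.3 h, and the open point is the array of 40 h, which was not used.

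A transcript is read on the array by a probe set, that is by several short oligonucleotides, and the values are background-corrected intensities on a linear scale that were tested as log2 values. Array medians lay between 49.9 and 54.7. The tissue was whole gland, and its labels were borne out by luminal markers (16 of 16 tested, summed intensity 17980.5 to 30966.6 in the low and 16852.2 to 24753.6 in the high arrays), basal markers and adipocyte markers in every array. Summed adipocyte markers lay at 69837.1 to 99446.2 in the low and 74340.7 to 94206.0 in the high arrays. Skeletal muscle markers varied widely inside both groups, from 2527.8 to 26509.2 in the low and from 2234.7 to 37440.1 in the high arrays, and lymphocyte markers rose above the high arrays' maximum of 273.0 in some low arrays, up to 1660.2. In whole tissue, fewer cells of a type and less RNA per cell cannot be told apart.

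Of 21066 probe sets that reached an intensity of 10 on all 31 arrays, 421 (2.00%) were lower and 441 (2.09%) were higher in the low arrays at an adjusted p under 0.05 from limma, 862 (4.09%) in all. The calls stand for 247 genes with a single symbol that were lower and 377 that were higher. The 2 groups did not overlap at all for 53 probe sets that were lower (0.252%) and 22 that were higher (0.104%). Because group and day are tied, a second fit took the slope of each probe set on the score over all 31 arrays with the cycle day and the clock hour as terms, scaled to the distance of 2.75 between the mean scores of the groups. In that fit 70 probe sets were lower at low score (0.332%) and 16 were higher (0.0760%). More probe sets passed on the lower than on the higher side when rats were compared within days, and the difference between the sides was not tested.

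The 15 genes with the largest decreases were led by Cited4, Smim38, Stc2, LOC100910319 and Akr1c15, and each of these 5 separated the groups without overlap. Cited4 encodes a transcriptional coactivator that binds CBP and p300. It lay at 20.8 to 46.4 with a median of 26.3 in the low arrays and at 96.5 to 306 with a median of 129 in the high arrays, a log2 difference of -2.39 (standard error 0.21, adjusted p = 2.54e-07 from limma). Every low array stood below every high array, the high arrays by 5.23-fold on average. Stc2 encodes stanniocalcin 2, a secreted glycoprotein known to respond to estrogen. It lay at 21.4 to 42.5 (median 27.5) in the low and 68.6 to 187 (median 137) in the high arrays, a log2 difference of -2.15 (standard error 0.18, adjusted p = 1.96e-07). The lowest of the high arrays for Stc2 was the day 4 array of 85.3 h, and the next lowest, of 31.6 h, was at 96.5.

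Smim38, a small membrane protein, lay at 36.2 to 77.2 in the low and 151 to 528 in the high arrays, a log2 difference of -2.31 (standard error 0.22). Akr1c15, an aldo-keto reductase, lay at 152 to 530 in the low and 695 to 1704 in the high arrays, a difference of -1.95 (standard error 0.19, adjusted p = 1.32e-06). The groups were apart for both genes, and for Akr1c15 the lowest value of all belonged to the rat of 62.5 h. LOC100910319, a gene without a name, had a difference of -1.96 (standard error 0.14) and the smallest adjusted p of the 15, 7.77e-09. Gas2l3, a linker of actin and microtubules, differed by -1.39, Dhrs7, a short-chain dehydrogenase, by -1.35 and Hba-a3, an alpha globin, by -1.57, and these were the other 3 of the 15 whose groups did not overlap. Dhrs7 was the brightest of them, at 1613 to 3162 in the low and 4538 to 7196 in the high arrays.

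The other 7 of the 15 overlapped between the groups. Oxtr, the oxytocin receptor of myoepithelial cells, lay at 22.9 to 116 (median 70.6) in the low and 69.6 to 371 (median 229) in the high arrays, a log2 difference of -1.68 (standard error 0.33, adjusted p = 0.00433). Aqp5, a water channel, lay at 317 to 798 and 724 to 2027, a difference of -1.36 (standard error 0.19, adjusted p = 0.000203), and only the high array of 31.6 h reached down into the low group. Clca4l differed by -1.45, Zbtb40, a zinc finger protein, by -1.45, Slc7a7, a transporter of cationic amino acids, by -1.43, Mmp11, the matrix protease stromelysin 3, by -1.40, and the calmodulin-like protein Calml3 by -1.32. Mmp11 was the least sure of them (adjusted p = 0.0306) and passed in 12 of the 20 fits that each left out 1 array. It did not pass without the array of 43, 58, 62.5, 10, 13.2, 14.6, 16 or 34.5 h.

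With the clock hour as a term all 15 passed, and in the fit within days 11 of the 15 passed and all 15 had the same sign. Over all probe sets tested, 0.332% were lower in the fit within days. These 15 genes, like the largest increases below, were picked on arrays that both fits use again. Neither fit is therefore independent support for them. Cited4 had a difference of -2.34 within days (adjusted p = 1.55e-05), Stc2 -2.07 (adjusted p = 2.51e-07), Aqp5 -1.43 and Dhrs7 -1.21. Oxtr (-1.16, adjusted p = 0.305), Zbtb40 (-1.34, adjusted p = 0.154), Mmp11 (-1.32, adjusted p = 0.226) and Calml3 (-0.73, adjusted p = 0.341) did not pass within days. The within-day value was nearer 0 than that of the group comparison for all of the 15 but 2, as for Smim38 (-1.82 against -2.31). The exceptions were Clca4l (-1.47 against -1.45) and Aqp5 (-1.43 against -1.36).

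**Figure D2:**
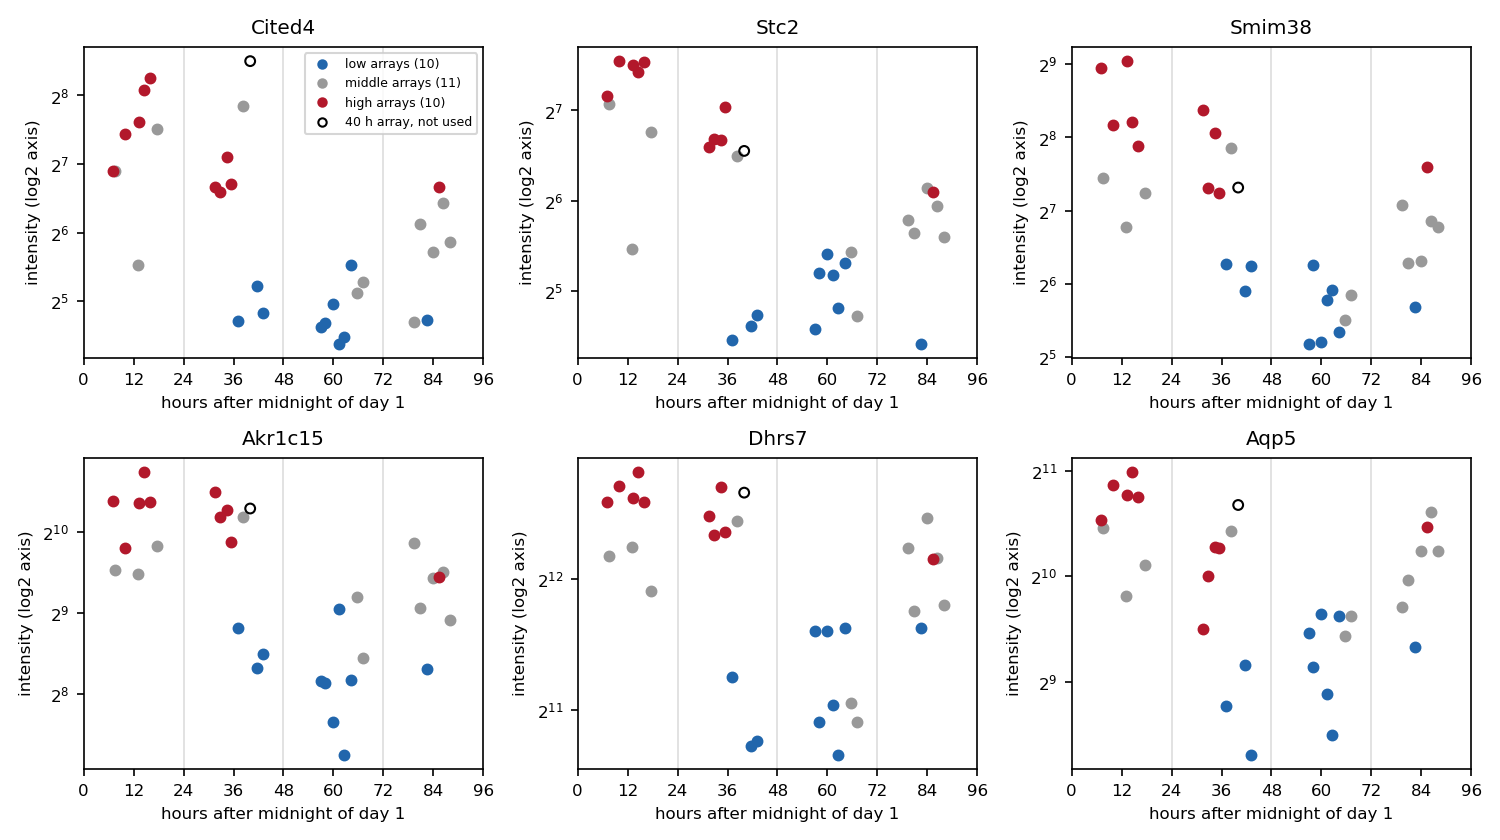
Intensity on a log2 axis of 6 of the 15 genes with the largest decreases, against the hour of sampling, 1 point per rat with grey lines at midnight. For Cited4 the low array (blue) of 37.1 h lies at 26.2, against 105 in the high array (red) of 35.5 h and 231 in the middle array (grey) of 38.3 h, and on day 4 the low array of 82.5 h lies at 26.4, beside the middle array of 79.3 h at 25.9.

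The rats of 37.1 h and 82.5 h can be set beside rats sampled shortly before and after them. In the rats of 35.5, 37.1 and 38.3 h Stc2 was at 131, 22.1 and 90.0, and Dhrs7 at 5234, 2430 and 5563. In those of 80.9, 82.5 and 83.9 h on day 4 Cited4 was at 70.1, 26.4 and 52.5, Stc2 at 50.1, 21.4 and 70.6, and Dhrs7 at 3455, 3149 and 5638, so that for Dhrs7 the rat of 82.5 h was close to the rat before it. Cited4 and Stc2 were low in these 2 rats, which were low in Pgr and Greb1, and higher in the rats next to them in time, although the array of 79.3 h was also low for Cited4 (25.9) with Pgr in the middle range. When only the 4 low arrays of days 2 and 4 were set against the 10 high arrays, Cited4 differed by -2.33, Stc2 by -2.46 and Dhrs7 by -1.44. With the 6 low arrays of day 3 the differences were -2.42, -1.94 and -1.29, so these 3 genes passed with either part of the low group. Within day 2 alone, 3 low against 4 high arrays, Stc2 differed by -2.14 (adjusted p = 0.00152 from limma) and Cited4 by -1.85 (adjusted p = 0.00756). The 3 genes were picked on these same low arrays and the same 10 high arrays. Neither the fits to parts of the low group nor the values at 37.1 and 82.5 h are therefore independent support for them.

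The fit with the low arrays of day 3 alone also allowed the other arrays to be placed. It gave 352 lower and 205 higher probe sets, and for each array not used in it the share of these on the low side of the midpoint between the group means was counted. The array of 37.1 h was on the low side for 59.9% of the lower and 64.4% of the higher probe sets, and the array of 82.5 h for 69.6% and 76.1%. The low array of 43 h was at 54.5% and 69.8% and that of 41.6 h at 65.3% and 60.5%. The array of 40 h, with high Pgr, was on the low side for 22.7% and 9.76%. Of the middle arrays, that of 17.6 h was at 60.5% and 22.9%, above that of 37.1 h for the lower probe sets, that of 38.3 h was at 33.0% and 56.6%, that of 83.9 h at 34.1% and 26.8%, that of 80.9 h at 69.3% and 46.8%, and that of 67.1 h at 68.2% and 74.6%. The order is a description of these arrays and carries no test.

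Of 22 listed genes of the hormone-sensing epithelium 14 could be tested, with 10 differences negative and 4 positive. The list median was -0.31 against 0.003 over all probe sets. At the threshold 5 of the genes were lower in the low arrays and 0 were higher. The shares over all probe sets tested were 2.00% lower and 2.09% higher, and the counts of the lists below stand beside these same shares. Besides Stc2 and Cited4 these were Prom1, Msx2 and Prlr. Prom1 encodes prominin 1, a surface protein that marks hormone-sensing luminal cells in mice, and lay at 259 to 591 (median 433) in the low and 672 to 1358 (median 958) in the high arrays, with no overlap. Its log2 difference was -1.15 (standard error 0.15, adjusted p = 8.08e-05), and it also passed within days at -1.08 (adjusted p = 0.000354). Prlr, the prolactin receptor, differed by -0.44 (adjusted p = 0.0323) and Msx2, a homeobox factor, by -0.75 (adjusted p = 0.0465), and neither passed with the clock hour as a term (adjusted p = 0.0886 and 0.130). Prlr lost the call without the array of 41.6, 43, 62.5, 7, 10, 13.2, 14.6, 34.5 or 35.5 h, and Msx2 kept it in 6 of 20 fits, those without 37.1, 58, 61.3, 82.5, 16 or 35.5 h. Of 2 further probe sets of Prlr, 1 passed and the other differed by -0.13 (adjusted p = 0.624). The list kept only 3 calls without the array of 41.6, 43, 7, 13.2, 14.6 or 34.5 h.

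Areg, the EGF-family ligand amphiregulin, missed the threshold. It lay at 149 to 3063 with a median of 515 in the low and at 571 to 3700 with a median of 1938 in the high arrays, a log2 difference of -1.63 (standard error 0.46, adjusted p = 0.0505). Its highest low array was that of 62.5 h, inside the range of the high arrays. Other genes of the list that are known for luminal identity differed little, with Gata3 at -0.18, Xbp1 at -0.13 and Tbx3 at -0.07, none past the threshold. Esr1, Foxa1 and Tnfsf11, the RANK ligand, did not reach an intensity of 10 on all arrays and were not tested.

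Of 10 tested genes of the progesterone and RANK ligand axis 0 were higher and 0 were lower, with a median of 0.03. Wnt4, a WNT ligand downstream of the progesterone receptor, lay at 166 to 306 in the low and 157 to 270 in the high arrays, a difference of 0.15 (standard error 0.14, adjusted p = 0.635). Tnfrsf11a, the receptor of RANK ligand, differed by 0.01 (standard error 0.18), Elf5, a factor of the secretory lineage, by 0.29 and the cyclin Ccnd1 by -0.16. Of 12 estrogen-induced genes, Stc2 alone was lower, and of 12 steroid and prolactin receptors and coregulators, Prlr alone was lower. The groups overlapped widely for all the named members of this axis.

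Of 12 tested genes of steroid metabolism 2 were lower and 0 higher, Akr1c15 and Akr1c14. Akr1c14 is a 3-alpha-hydroxysteroid dehydrogenase, and lay at 395 to 1497 in the low and 1278 to 2539 in the high arrays, a log2 difference of -1.18 (standard error 0.18, adjusted p = 0.000478), with like values from its 2 other probe sets. Aldo-keto reductases of this family are close in sequence, and the probe sets may share signal. Btc, the ligand betacellulin, was the only one of 10 EGF and WNT ligands to pass, with a median of 19.3 and a highest value of 30.4 in the low arrays and with 30.1 to 66.2 in the high arrays, a difference of -1.27 (standard error 0.17, adjusted p = 0.000131). Btc passed within days as well, at -1.32 (adjusted p = 0.00342), and so did Akr1c15, at -1.61 (adjusted p = 0.000735). Akr1c14 did not (-1.01, adjusted p = 0.0964). Within days 1 of the 12 steroid metabolism genes was lower and 1 was higher at low score. Atf3, a stress-induced factor, was the only lower gene of 14 immediate early genes, at -1.02 (adjusted p = 0.00501). It did not pass within days (-0.81, adjusted p = 0.266).

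Hba-a3 was lower while related erythroid transcripts did not pass. Hba-a3 lay at 129 to 384 in the low and 418 to 1064 in the high arrays (log2 difference -1.57, standard error 0.19, adjusted p = 3.49e-05). Hbb, a beta globin, differed by -0.44 (adjusted p = 0.171) and Alas2, the erythroid enzyme of heme synthesis, by -0.65 (adjusted p = 0.109). The part of blood left in the tissue was not tested.

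**Figure D3:**
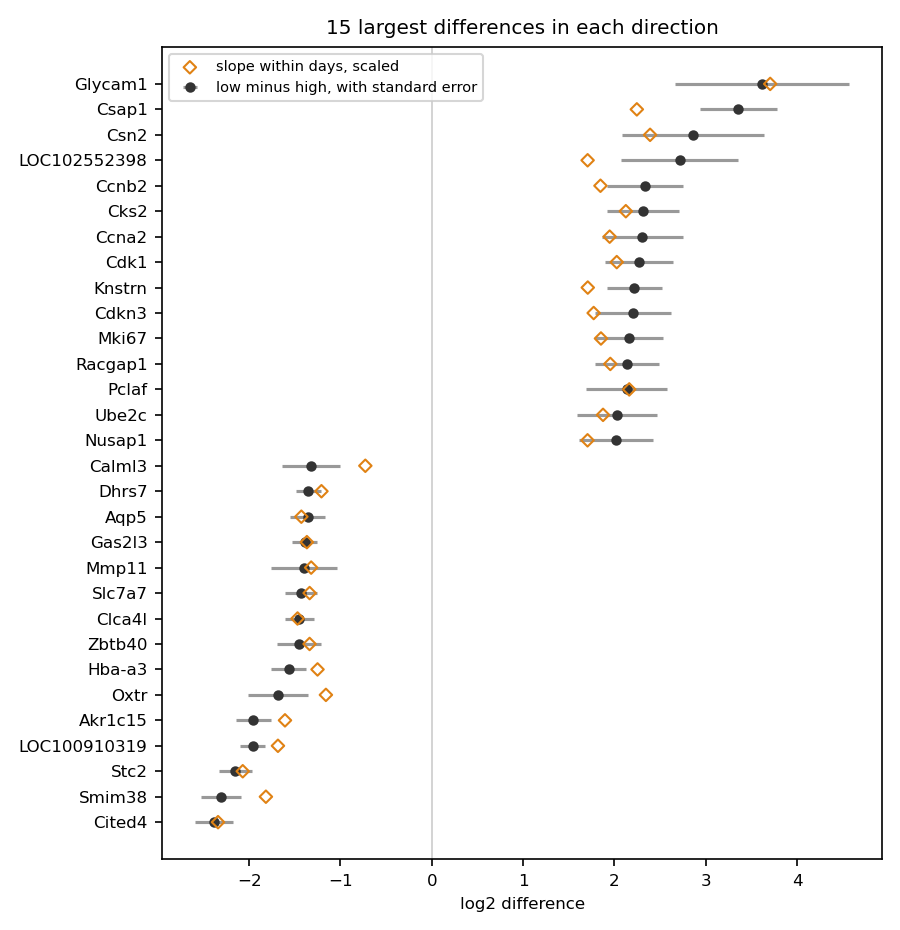
Log2 difference, low minus high arrays, of the 15 genes with the largest decreases and the 15 with the largest increases past the threshold (points, with standard errors) and the slope within days scaled to the same distance (diamonds). Cited4 lies at -2.39 and -2.34, while Calml3 lies at -1.32 and -0.73 and Csap1 at 3.36 and 2.25.

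Among the 15 largest increases, 7 were members of the mitosis list. Cdk1, the kinase that starts mitosis, lay at 53.7 to 778 with a median of 146 in the low and at 23.0 to 71.1 with a median of 31.0 in the high arrays, a log2 difference of 2.27 (standard error 0.37, adjusted p = 0.000950). The groups overlapped through 1 low array, that of 64.2 h at 53.7, which stood below the high arrays of 7, 31.6 and 85.3 h. Mki67, the proliferation marker Ki-67, lay at 81.3 to 1118 (median 188) and 32.3 to 107 (median 43.5), a difference of 2.16 (standard error 0.37, adjusted p = 0.00152). The rat of 62.5 h had the highest values of both. Knstrn, a protein of the spindle and kinetochore, lay at 33.4 to 236 in the low and 10.9 to 27.0 in the high arrays, and was the only one of the 15 without overlap (difference 2.22, standard error 0.30, adjusted p = 0.000145).

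Ccnb2, a B-type cyclin, differed by 2.33, Cks2, a subunit of cyclin-dependent kinases, by 2.31, the A-type cyclin Ccna2 by 2.31, and Cdkn3, a phosphatase of those kinases, by 2.20. Racgap1, needed for cytokinesis, differed by 2.14, Pclaf, a partner of PCNA, by 2.13, Ube2c, a ubiquitin conjugase of anaphase, by 2.03 and Nusap1, a spindle protein, by 2.02. The within-day slopes of these 8 genes and of Cdk1, Mki67 and Knstrn were all positive, between 1.71 and 2.16, but none passed, with adjusted p from 0.0763 to 0.226.

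Of 30 listed mitosis genes 27 were on the array and 21 could be tested. All 21 were higher in the low arrays, against 2.09% of all probe sets, with a list median of 1.80. With no filter on low values 25 of the 27 passed. Of the 21, the difference ran from 0.95 for Plk1, which passed in 6 of the 20 fits that left out 1 array, to 2.33 for Ccnb2. The mean of the list, in log2 units around the mean of the 31 arrays, lay at -0.54 to 3.17 in the low arrays and at -1.21 to 0.06 in the high arrays. The lowest of the low arrays was that of 64.2 h and the highest was that of 62.5 h, followed by 43 h at 2.04, so that rats of similar score differed widely. The array of 41.6 h had the lowest score of all and a mitosis mean of only 0.26. In the fit within days 0 of the 21 passed, although all 21 slopes were positive (median 1.47), and at that fit 16 of all probe sets passed in this direction and 2277 had an unadjusted p under 0.05 in either. With the low arrays of day 3 alone 13 passed and with those of days 2 and 4 alone 20 passed, where Cdk1 differed by 2.38 (adjusted p = 0.00400) and Mki67 by 2.26 (adjusted p = 0.00609). Leaving out 1 array at a time, 17 to 21 passed.

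**Figure D4:**
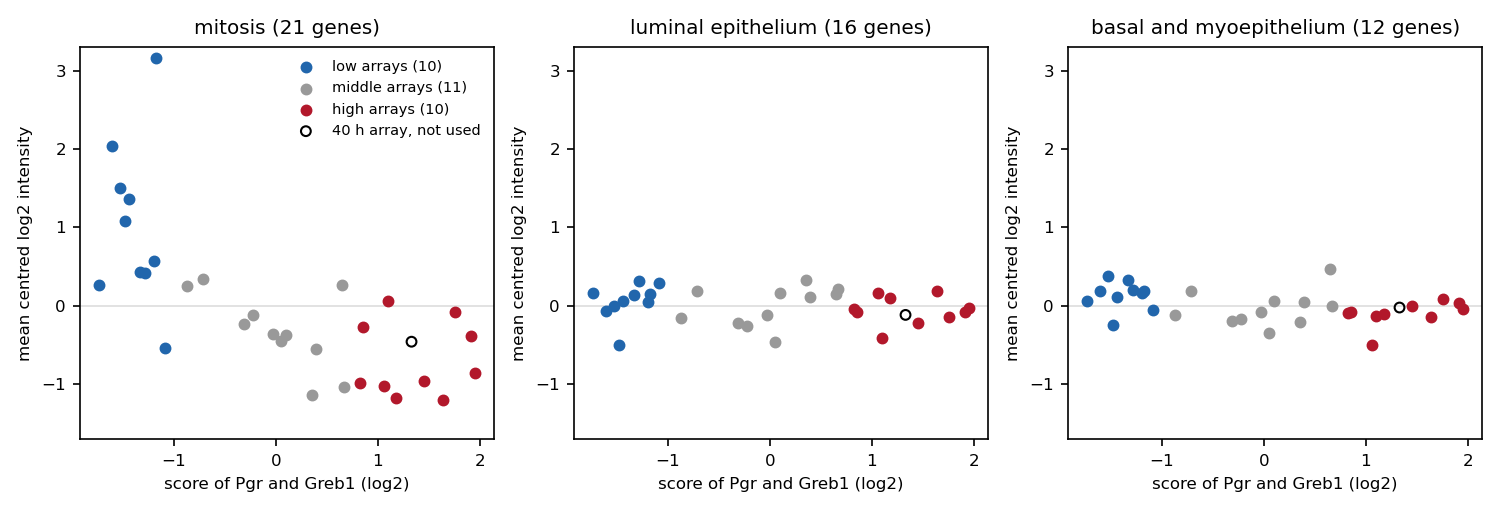
Mean centred log2 intensity of 3 gene lists in each array against the score of Pgr and Greb1, both in log2 units, 1 point per rat. The mitosis mean reaches 3.17 in the low array of 62.5 h and stays at or below 0.06 in the high arrays, while the means of the luminal and basal lists stay between -0.50 and 0.47.

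The promoters of mitosis genes hold short elements that are shared across the list, and 3 of them are shown because their genes were higher together in the low arrays. The sequences are those of RefSeq (rat build GRCr8), 250 bases before to 50 after the start of the gene, read 5′ to 3′ on the strand of the gene. Capitals mark TTTGAA and TTTAAA, forms of the cell cycle homology region that binds the MuvB complex, and the CCAAT box of NF-Y, each on either strand (CCAAT reads ATTGG on the other strand). Cdk1 lies at chr20:19265043-19265342 (plus strand), Ccnb1 at chr2:33655176-33655475 (minus strand) and Ccnb2 at chr8:79981609-79981908 (minus strand).
Cdk1 promoter: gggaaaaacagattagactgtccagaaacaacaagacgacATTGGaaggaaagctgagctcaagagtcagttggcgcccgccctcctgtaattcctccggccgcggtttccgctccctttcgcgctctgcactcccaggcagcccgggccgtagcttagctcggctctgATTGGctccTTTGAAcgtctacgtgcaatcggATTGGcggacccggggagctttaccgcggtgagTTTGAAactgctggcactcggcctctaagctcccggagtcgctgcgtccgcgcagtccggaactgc
Ccnb1 promoter: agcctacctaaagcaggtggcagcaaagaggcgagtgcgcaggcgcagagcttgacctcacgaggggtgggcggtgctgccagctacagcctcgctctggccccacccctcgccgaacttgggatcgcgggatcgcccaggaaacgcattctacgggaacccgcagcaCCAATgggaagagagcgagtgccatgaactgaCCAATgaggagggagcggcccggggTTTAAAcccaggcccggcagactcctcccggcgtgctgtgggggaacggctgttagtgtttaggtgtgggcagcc
Ccnb2 promoter: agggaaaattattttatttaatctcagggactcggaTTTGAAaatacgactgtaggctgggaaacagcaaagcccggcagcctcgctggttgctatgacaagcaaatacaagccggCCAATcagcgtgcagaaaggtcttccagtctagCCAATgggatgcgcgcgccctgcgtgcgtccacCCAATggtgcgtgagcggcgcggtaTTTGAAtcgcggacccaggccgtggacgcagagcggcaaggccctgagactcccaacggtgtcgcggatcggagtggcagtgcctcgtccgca

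TTTGAA or TTTAAA was found in 19 of the 19 promoters on record for 18 of the 21 mitosis genes, against 28.3% of 33469 promoters of 27457 genes. CCAAT was found in 15 of the 19, against 37.5% of all. Of the 15 genes with the largest increases 12 had a promoter on record, and 10 of their 14 promoters held TTTGAA or TTTAAA. This set is not separate from the mitosis list, since 7 of the 15 genes are on both. Of the 17 promoters of the 15 genes with the largest decreases 2 held it. Matches describe these letters in this window and were not set against binding.

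For the decreases the letters of a half-site for nuclear receptors, GGTCA, were counted on either strand. They were found in 11 of the 17 promoters of the 15 genes with the largest decreases, against 40.5% of all promoters, 6 of 19 mitosis promoters and 3 of 14 promoters of the increases. The full estrogen response element GGTCANNNTGACC was in none of these promoters and in 0.0269% of all, and the progesterone response element, searched as GNACANNNTGTNC, was in none of them and in 0.439% of all. The promoter of Stc2, at chr10:16755258-16755557 (plus strand, GRCr8), is shown with its GGTCA letters in capitals, the second of them on the other strand as TGACC.
Stc2 promoter: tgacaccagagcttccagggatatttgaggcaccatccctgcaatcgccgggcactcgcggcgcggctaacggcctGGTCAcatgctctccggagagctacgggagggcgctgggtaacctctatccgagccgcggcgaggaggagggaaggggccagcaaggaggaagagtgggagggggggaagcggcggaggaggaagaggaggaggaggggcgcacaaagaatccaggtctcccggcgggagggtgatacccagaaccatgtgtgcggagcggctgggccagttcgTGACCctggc

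Of 22 tested DNA replication genes, 7 were higher and 0 were lower, with a list median of 0.58 and all 22 differences positive. In the fit within days 0 of the 22 passed, although all 22 slopes were positive, with Rfc3 at 0.80 (adjusted p = 0.0763 from limma) and Uhrf1 at 1.52 (adjusted p = 0.163). Uhrf1, which carries DNA methylation through replication, differed by 1.54 (adjusted p = 0.0133), Pole, a replicative polymerase, by 0.86 and Rfc3, a subunit of the clamp loader, by 0.78 (adjusted p = 0.00393). Rrm1, a subunit of ribonucleotide reductase, differed by 0.65, Mcm4, a helicase subunit, by 0.60 and Rfc4 by 0.59, and Gins1, a partner of the helicase, was the seventh (adjusted p = 0.0387). Pcna, the sliding clamp, lay at 1257 to 3622 in the low and 1270 to 1478 in the high arrays, a difference of 0.43 (adjusted p = 0.110). The count was 2 without the array of 37.1, 43, 10, 13.2 or 14.6 h, 3 without 16 h, 4 without 34.5 or 35.5 h, 11 without 82.5 h and 12 without 64.2 h, and 2 with the clock hour as a term.

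Contractile genes on the basal and myoepithelial list were higher while the keratins on it did not pass. Which cells of the whole gland made the contractile transcripts was not tested. Of 12 tested basal and myoepithelial markers 6 were higher and 1 (Oxtr) was lower, with a list median of 0.41, against 2.09% and 2.00% of all probe sets. Actg2, a smooth muscle actin, lay at 802 to 1864 (median 1219) in the low and 346 to 774 (median 564) in the high arrays, with no overlap, 2.14-fold higher on average (standard error 0.16 on the log2 scale, adjusted p = 0.000325). Mylk, the myosin light chain kinase, lay at 2479 to 3528 in the low and 1883 to 2397 in the high arrays, also with no overlap (difference 0.46, standard error 0.07, adjusted p = 0.000709). Cnn1 differed by 0.70, Acta2 by 0.56, Myh11 by 0.55 and Tagln by 0.48, all proteins of the contractile apparatus. Acta2 (adjusted p = 0.0355) lost its call without the array of 57, 58, 59.8, 62.5, 10, 31.6 or 34.5 h, and a second probe set of Myh11 did not pass (0.24, adjusted p = 0.339). Krt5 differed by 0.36 (adjusted p = 0.231) and Krt14 by 0.17 (adjusted p = 0.576), and Tp63, the basal transcription factor, by -0.05. Within days none of the 6 passed, with Actg2 at 0.64 (adjusted p = 0.266).

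Of 16 luminal markers the keratins Krt8 and Krt18 were higher, by 0.51 (adjusted p = 0.00195) and 0.40 (adjusted p = 0.0137), and Prom1 was lower. Krt8 lay at 2071 to 3577 in the low and 1712 to 2274 in the high arrays. Epcam, an adhesion protein of all mammary epithelium, differed by 0.04 (standard error 0.12, adjusted p = 0.890). The list median was 0.18, and within days neither keratin passed (0.24 and 0.18). With the mean of the luminal list as a term in a slope over the 31 arrays, 637 probe sets were higher and 513 lower at low score.

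Of 12 tested genes of the luminal progenitors and milk proteins 2 were higher in the low arrays, 0 were lower and 10 did not pass, with a list median of 0.34. Csn2, beta-casein, lay at 403 to 20839 with a median of 14606 in the low and at 185 to 14614 with a median of 935 in the high arrays, a log2 difference of 2.86 (standard error 0.78, adjusted p = 0.0391). Glycam1, a mucin-like protein of milk, lay at 657 to 16791 in the low and 38.4 to 10786 in the high arrays, a difference of 3.62 (standard error 0.96, adjusted p = 0.0346). The high arrays of 32.8 and 35.5 h held Csn2 at 11632 and 14614, inside the range of most low arrays, and the low array of 61.3 h was at 403. Both lost the call with the clock hour as a term (adjusted p = 0.0937 and 0.0870). Csn2 passed in 6 and Glycam1 in 8 of the 20 fits that left out 1 array. The list's count was 0 without 37.1, 41.6, 43, 57, 59.8, 62.5, 7, 10, 13.2, 14.6, 34.5 or 85.3 h, 1 without 64.2 or 31.6 h and 4 without 61.3 h. In the 11 middle arrays the slopes of both genes had the opposite sign.

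Csap1, common salivary protein 1, had a more even increase. It lay at 533 to 4313 (median 2346) in the low and at 49.1 to 590 (median 212) in the high arrays, a log2 difference of 3.36 (standard error 0.42, adjusted p = 4.27e-05), and the groups overlapped only narrowly. With the clock hour as a term it differed by 3.49 (adjusted p = 0.000102), and within days by 2.25 (adjusted p = 0.117). LOC102552398, a gene without a name, differed by 2.71 (adjusted p = 0.0189). It lay at 70.0 to 1238 in the low and at 12.6 to 570 in the high arrays, so the groups overlapped widely. The gene passed with the clock hour as a term (2.92, adjusted p = 0.0233) but not within days (1.71, adjusted p = 0.411).

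Of 12 macrophage markers 2 were lower, Adgre1 (-0.39) and Cd163 (-0.46), with 11 of 12 differences negative, a list median of -0.34 and a summed level of 13592.1 to 21422.3 in the low and 16871.8 to 23979.2 in the high arrays. Of 9 endothelial markers 3 were lower, the receptor Tek (-0.38), the adhesion proteins Esam (-0.38) and Pecam1 (-0.28), with 9 of 9 negative and a list median of -0.28. Of 15 fibroblast and collagen genes 2 were lower, Lox (-0.52), which crosslinks collagen, and Col6a1 (-0.39), and both lost the call in most fits that left out 1 array. Lox passed only without 58, 61.3, 64.2, 13.2, 16 or 35.5 h and Col6a1 only without 41.6, 58, 61.3, 34.5 or 35.5 h. Cd163 lost the call without 57, 59.8, 62.5, 13.2, 14.6, 16, 32.8 or 34.5 h, and Pecam1 without 43, 57, 59.8, 62.5, 7, 13.2, 14.6, 31.6, 32.8 or 34.5 h. None of these 7 genes passed within days, and in the group comparison 2.00% of all probe sets were lower. Of 14 adipocyte, 11 fatty acid synthesis, 6 skeletal muscle, 6 lymphocyte, 11 interferon-stimulated and 11 acute phase genes 0 passed in either direction, with list medians of -0.90 for skeletal muscle and 0.57 for lymphocytes.

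The clock genes did not pass either. Of 12 circadian genes driven through E-box and D-box elements and 5 of the opposite, BMAL1 arm 0 passed, with list medians of 0.25 and -0.20. The low arrays were sampled later in the day by 2.25 h on average, and with the clock hour as a term 331 probe sets were lower and 255 higher. With the means of 4 tissue lists (luminal, adipocyte, skeletal muscle and lymphocyte) as terms, 627 were lower and 923 higher.

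**Figure D5:**
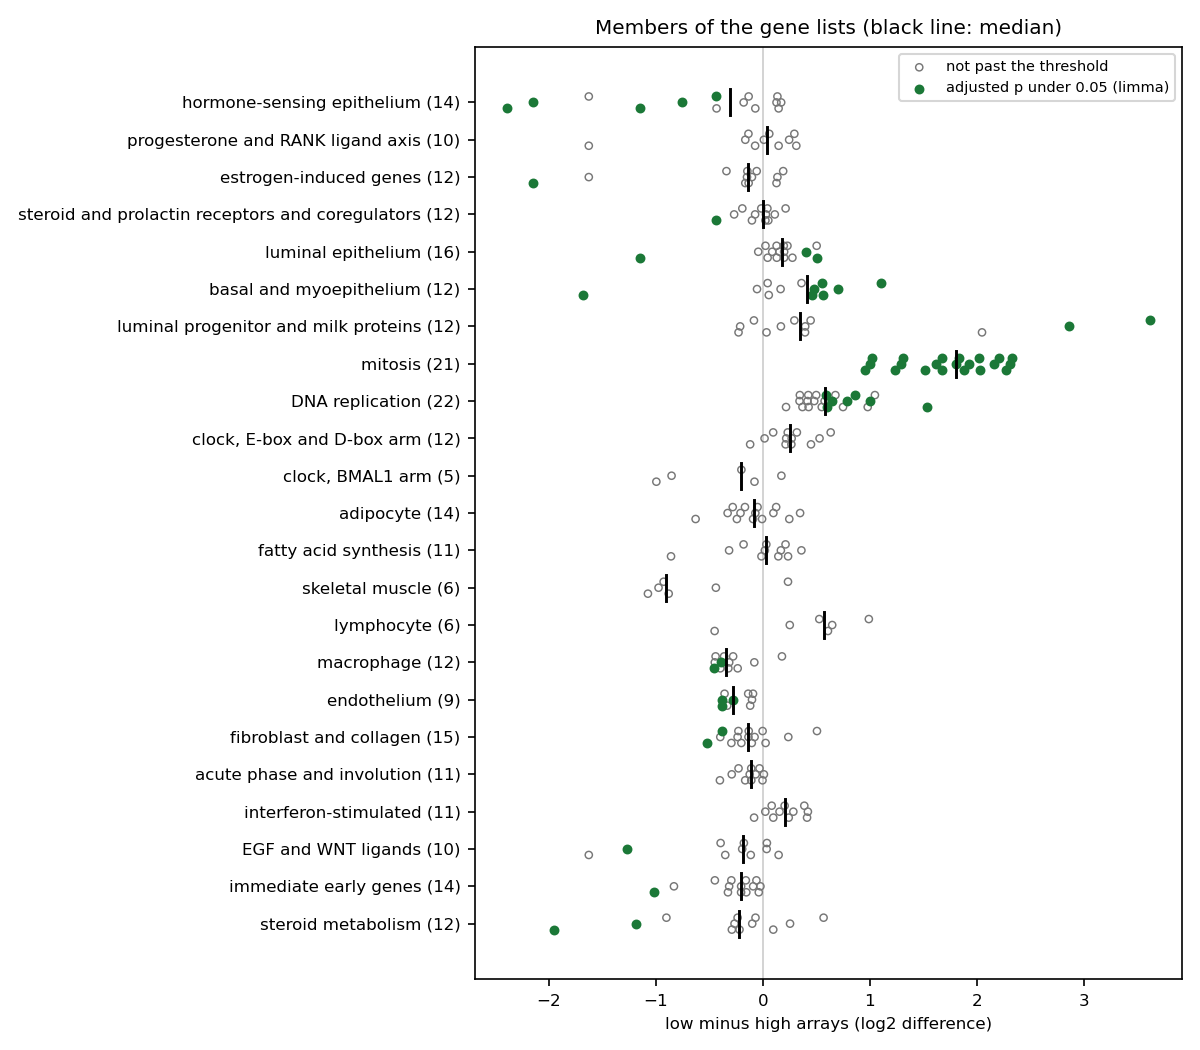
Log2 difference, low minus high arrays, of every tested member of 23 gene lists, with the number tested beside each name, filled where the adjusted p from limma is under 0.05. The 21 mitosis genes all lie above 0 with a median of 1.80, while the 14 genes of the hormone-sensing epithelium run from -2.39 to 0.17.

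The 11 arrays between the groups did not enter the fit that made the calls, though they entered the centring, the ranking and the intensity filter. Cycle day was not a term in their slope on the score. The lowest scores among them were those of the day 3 arrays, 65.6 h (-0.86) and 67.1 h (-0.71), so score and day were not separated there either. In them the slope on the score had the direction of the call for 277 of the 421 lower probe sets (65.8%) and for 265 of the 441 higher ones (60.1%). Among probe sets that did not pass, the shares were 46.0% and 49.5%. Of the 15 largest decreases 14 kept their sign there, Oxtr being the exception, and of the 15 largest increases 13 did, Csn2 and Glycam1 being the exceptions. In a fit to these 11 arrays alone 8 probe sets were lower and 2 higher at low score at an adjusted p under 0.05, and 2142 had an unadjusted p under 0.05.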

How the data were processed

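Mammary gland RNA of 32 rats was hybridised to 1 Affymetrix rat array each. From the scans the authors made one linear intensity per probe set with GC-RMA, listed as GCRMA among the submitters' tools with no version in the sources used here. It corrects for background according to each probe's base content and brings the probe values of all arrays to 1 distribution before they are summarised. Medians of the summarised values still ran from 49.9 to 54.7 over the arrays used. The deposited values run from 2.22 to 37317. The number of arrays limits the precision, and no scan batch was known. The labels and the methods differ on which glands were taken and how RNA was stored and extracted, which was not settled here.

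The 57 control probe sets were left out. The probe set of highest mean log2 intensity stood for each gene in the score and in the gene lists (Pgr had 1 probe set, Greb1 2). Log2 values of the 10 lowest and 10 highest arrays were compared with limma (lmFit and eBayes) over 21066 probe sets that reached 10 on every one of 31 arrays, and p-values were adjusted by Benjamini-Hochberg at a threshold of 0.05. Of these, 15566 had 1 gene symbol, 353 several and 5147 none in the platform annotation. Named are Pgr and Greb1, the 15 largest decreases and increases past the threshold among genes with 1 symbol, members of the gene lists past the threshold and, for lists with fewer than 3, up to 3 of their brightest members. Hbb, Alas2 and further members that did not pass were named after their values were seen. The arrays compared and the gene lists were chosen with earlier results of these data known. The clock hour was compared with 100000 permutations. The code was tested on simulated data. Alternatives covered group size, score, covariates, filters, normalization, variance model, a rank test, other probe sets and leaving out each array. The tools were limma 3.58.1 in R 4.3.3 and, in Python 3.11.15, pandas 2.3.3, scipy 1.17.1, numpy 2.4.6 and matplotlib 3.10.9.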

Additional observations from a re-analysis of the deposited data

Results flagged for a closer look

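In 192 groups of 10 arrays, the lowest and highest arrays were compared with their nearest neighbours by Dixon's ratio, and 9 groups held an array that stood apart, where chance gives about 1 in 20. In the low arrays, Csn2 was at 403.5 at 61.3 h against 6180.5 in the next lowest, and the luminal list mean was at -0.496 in the same rat against -0.062 in the next. At 62.5 h, Rfc4 was at 601.5 against 341.6 in the next highest and Tek at 670.1 against 934.8 in the next lowest. At 41.6 h the mean of the immediate early genes was at 0.648 against -0.015. In the high arrays, the rat of 16 h stood lowest for Cnn1, at 324.3 against 484.4, and for the basal list mean, at -0.498 against -0.143. Pecam1 was at 732.6 at 34.5 h against 617.1, and the mean of the RANK ligand axis was at -0.232 at 85.3 h against 0.003.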

How the results depend on the processing

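The main comparison gave 441 probe sets higher and 421 lower, with 5 hormone-sensing genes lower and 21 mitosis genes higher. The higher count was 282 with 8 arrays a group, 229 with Pgr alone, 255 with the clock hour and 923 with 4 tissue lists. With day and clock hour as terms there were 16 higher and 70 lower, with 3 hormone-sensing and 0 mitosis genes. In the 11 middle arrays there were 2 higher and 8 lower, with 0 and 0. Chosen after seeing the data, the low arrays of day 3 alone gave 205 higher, with 3 and 13, those of days 2 and 4 alone 266 and 157, with 3 and 20, and day 2 alone 60 and 68, with 3 and 1. Fewer arrays enter these fits. The hormone-sensing count was 3 with the clock hour, with the rank test and with a filter at an intensity of 50, where no mitosis gene was left to test. Leaving out 1 array gave 295 to 599 higher, 287 to 489 lower, 3 to 6 hormone-sensing and 17 to 21 mitosis genes. The clock hour difference was 3.117 h with 12 arrays a group (permutation p = 0.0331), against 2.25 h.

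For 72 named genes past the threshold, signs were compared under each alternative, and reversed signs arose only in the middle arrays, none past the threshold: Oxtr 0.037, Glycam1 -4.81, Csn2 -3.07, Msx2 0.14, Acta2 -0.12, Aurka -0.55, Mcm4 -0.17, Rrm1 -0.22, Rfc3 -0.12, Rfc4 -0.50, Pecam1 0.15, Esam 0.18, Col6a1 0.14 and Lox 0.74. The cause was not tested. Quantile normalization, the intensity trend and the robust fit kept all 72 calls, and leaving out 1 array kept 55 to 71.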
